A study of Caenorhabditis elegans with 2 samples.

Results

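The genes unc-119 and nrde-3 of the nematode Caenorhabditis elegans were described across 2 libraries of small RNAs bound to the Argonaute protein NRDE-3. They were selected from the antisense reads of these libraries as the leading genes of the RNAi library and as candidate targets of small RNAs raised against a transgene, and they are 2 of the 45510 genes and 4 of the 56374 transcripts listed. The strand balance of nrde-3 was also part of the choice. Values of both strands are therefore a description, and nothing is tested with them. Both genes were found by their gene identifiers. unc-119 (WBGene00006843) lies on the plus strand of chromosome III, 10902641 to 10908935, and nrde-3 (WBGene00019862) on the plus strand of chromosome X, 372235 to 376900, in the Ensembl 115 annotation of WBcel235. The number of annotated genes overlapping either locus on either strand was 0.

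In C. elegans, RNA-dependent RNA polymerases copy targeted transcripts into secondary small RNAs, called 22G-RNAs, which are antisense to the transcript and are loaded onto worm-specific Argonautes. NRDE-3 carries such small RNAs into the nuclei of somatic cells, where nascent transcripts of the same sequence are silenced together with the other nrde genes. UNC-119 is a chaperone for lipid-modified proteins and is needed for the development of the worm nervous system. A wild-type copy of unc-119 is widely used to rescue unc-119 mutants and so to select transgenic worms, and transgenes in this animal are often targeted by the RNA interference machinery. The labels do not say how the nrde-3 transgene was made or whether either strain carries an added copy of unc-119.

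Both libraries came from embryo lysates of animals grown at 20 °C that carried 3xflag::gfp::nrde-3, and the small RNAs were recovered with anti-FLAG beads and cut from a gel at 20 to 30 nt. The wild-type library was from N2 animals raised on OP50 bacteria. The RNAi library was from animals with the genotype eri-1(mg366);dpy-13(e458) on dpy-13 RNAi food, included by the study as a control. eri-1 encodes an exonuclease whose loss enhances RNA interference, and dpy-13 encodes a cuticle collagen. Each group held 1 library, so nothing was tested and p-values are not given. Effects of genotype, of food and of the preparation cannot be told apart. Intervals are at the 95% level and cover counting error only. The mir-35 family microRNAs, abundant in embryos, all had sense reads, in sum 2546 in the wild-type and 12571 in the RNAi library, and the 4 larval and adult microRNAs that could be matched had a sum of 3 in each. Antisense reads on the trigger gene dpy-13 numbered 1 in wild type and 115 after RNAi.

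Levels are reads per 1000000 counted reads of both strands (RPM), from totals of 7693320 and 5537671. Genes of ribosomal, transfer, small nuclear, small nucleolar and microRNA are called structural RNA and were left out of ranks and shares. Outside them the wild-type library held 1330907 antisense and 261702 sense reads, and the RNAi library 425987 and 455908.

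Antisense reads on unc-119 numbered 224 in the wild-type library (exact Poisson interval 196 to 255) and 98201 in the RNAi library (97588 to 98817). That is 29.1 and 17733 RPM. The RNAi library thus held the higher level by a factor of 609 (534 to 698). In the RNAi library unc-119 was the gene with the most antisense reads, 9.48 times the reads of the gene in second place, which was nrde-3. In the wild-type library it ranked 125th of 7248 genes with an antisense read, between genes with 227 and 223 reads, from which it did not differ beyond counting error. Its share of antisense reads outside structural RNA was 0.0168% in the wild-type library (Wilson interval 0.0148 to 0.0192) and 23.1% in the RNAi library (22.9 to 23.2).

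Antisense reads on nrde-3 numbered 319 in the wild-type library (285 to 356) and 10360 in the RNAi library (10161 to 10561). The levels were 41.5 and 1871 RPM, a factor of 45.1 (40.4 to 50.6). nrde-3 ranked 110th in the wild-type library, with the transposon T27C5.9 at 325 reads just above it and ZK402.1 at 289 just below it. In the RNAi library it ranked second, with 2.23 times the 4652 reads of the third gene, F23A7.4. Its share was 0.0240% (0.0215 to 0.0267) in wild type and 2.43% (2.39 to 2.48) after RNAi, or 3.16% with unc-119 left out of the total. Together the 2 genes held 0.0408% of antisense reads outside structural RNA in wild type and 25.5% in the RNAi library.

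The order of the 2 genes differed between the libraries. The wild-type library had more antisense reads on nrde-3 than on unc-119, 319 against 224, with intervals that did not overlap. Per kb of the longest annotated transcript, 920 nt for unc-119 and 3442 nt for nrde-3, the order in that library was the opposite, with 243 antisense reads per kb on unc-119 and 92.7 on nrde-3. In the RNAi library unc-119 had 106740 antisense reads per kb and nrde-3 had 3010, so unc-119 was 35.5 times higher per length. By antisense reads per kb unc-119 stayed first in the RNAi library, while nrde-3 moved to 14th.

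Most genes with 10 or more antisense reads had more antisense RPM in the RNAi library, but the total went the other way. Antisense reads outside structural RNA made up 17.3% of counted reads in wild type and 7.69% after RNAi. The scale used for both members is the median ratio, which counts each gene once and does not describe this total. Over the 5751 genes with 10 or more antisense reads in the 2 libraries together, the median log2 ratio was 3.58, a factor of 11.9, and 95.1% had a ratio above 1. On the same log2 scale unc-119 was at 9.25, or 5.67 above that median, and nrde-3 at 5.49, or 1.91 above it. Outside structural RNA 5630 genes had 10 or more antisense reads, and 4 of them had a larger log2 ratio than unc-119 and 418 a larger one than nrde-3. The size rule asked for a level of at least 10 RPM in 1 of the libraries, a difference of 4-fold or more and an interval that lay entirely past 2-fold. It called 18.6% of measured genes higher and 2.63% lower in the RNAi library, and it called both members higher, on the contrast that chose them. The lower quartile of the all-gene log2 ratio was 2.73, already past 4-fold. Whether a gene was called higher thus depended largely on its read level. The share called in a gene list below is no measure of how far its genes lie from the all-gene median. TMM scaling brings the all-gene antisense median to 0.01. With it the log2 ratio of unc-119 was 5.68 and still met the rule, and that of nrde-3 was 1.92, below the 4-fold limit.

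**Figure D1:**
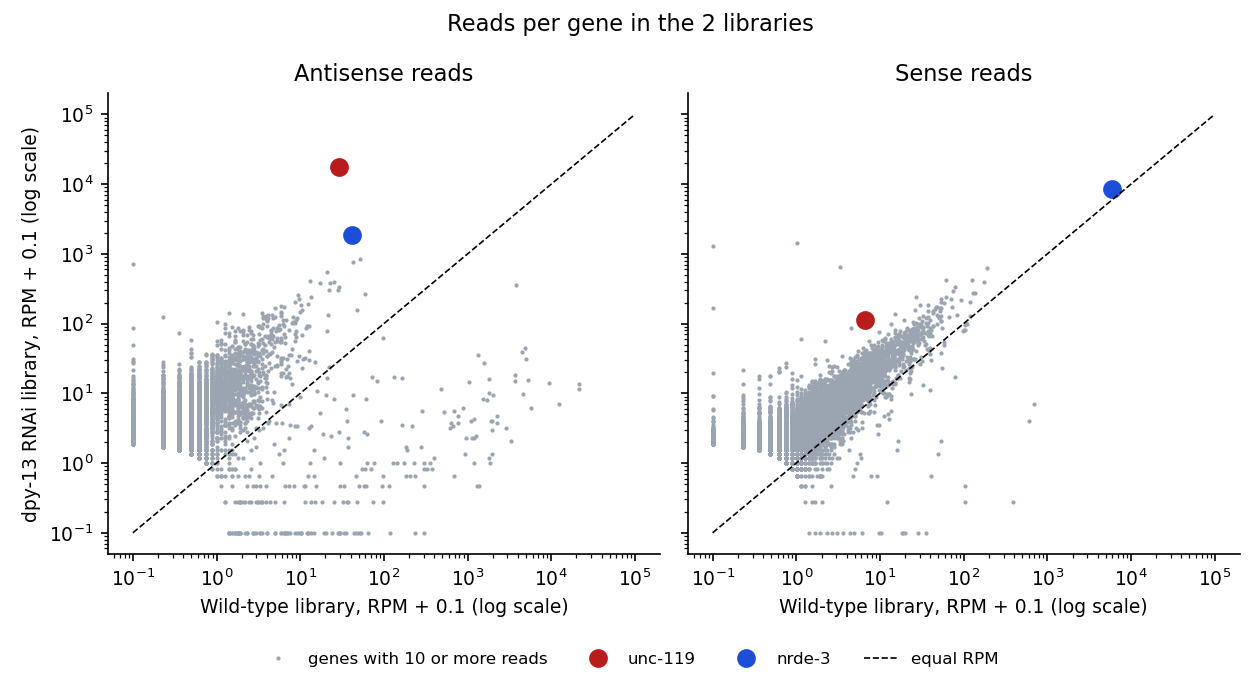
Each point is a gene outside structural RNA with 10 or more reads of that strand, with RPM plus 0.1 in the wild-type library on the x axis and in the RNAi library on the y axis, both on log scales, for antisense reads (left) and sense reads (right). unc-119 (red) and nrde-3 (blue) lie above all other genes in antisense RPM of the RNAi library, at 17733 and 1871, while nrde-3 has the most sense reads in both libraries.

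Sense reads on unc-119 numbered 50 in the wild-type library (37.1 to 65.9) and 623 in the RNAi library (575 to 674), or 6.50 and 113 RPM. The ratio was 17.3 (12.97 to 23.6), against a median of 2.89 over the 7591 genes with 10 or more sense reads. Of the 7068 such genes outside structural RNA, 151 had a larger ratio. unc-119 thus ranked 831st by sense reads in wild type and 49th in the RNAi library. Sense reads were 0.630% of all unc-119 reads in the RNAi library, where the wrong strand of microRNA genes held 0.462%. How many of the 623 sense reads were antisense reads assigned to the wrong strand was not tested. With TMM scaling the sense log2 ratio of unc-119 was 0.53 and no longer met the size rule. That scaling brought the all-gene median to 0.01 for antisense reads but to −2.04 for sense reads, so it did not centre the sense ratios. The distance of unc-119 above the all-gene sense median, 2.57, is the same under either scaling by construction.

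Sense reads on nrde-3 were many in both libraries, 45147 in the wild-type (44732 to 45565) and 46985 in the RNAi library (46561 to 47412). nrde-3 had the most sense reads of any gene outside structural RNA in each, ahead of a gene with 5398 in wild type and of sma-5, a kinase gene, with 7825 in the RNAi library. It held 17.3% of sense reads outside structural RNA in the wild-type library (17.1 to 17.4) and 10.3% in the RNAi library (10.2 to 10.4). In RPM the levels were 5868 and 8485, a ratio of 1.45 (1.43 to 1.46), which is below the all-gene sense median of 2.89. The direction of this ratio depended on the scaling, with a log2 ratio of 0.53 by counted reads, −3.04 by TMM, −3.11 by median-of-ratios factors and −1.25 by microRNA sense reads. The all-gene sense median was itself −2.04 by TMM, −2.12 by median of ratios and −0.26 by microRNA sense reads. The distance of the nrde-3 sense ratio from that median, 1.00 below it on the log2 scale, is the same under each scaling by construction. Any reads of an untagged nrde-3 gene are counted together with those of the tagged copy, which both strains carry, and cannot be told apart.

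The strand balance of the 2 genes was opposite. Of all reads on unc-119, 81.8% were antisense in the wild-type library (Wilson interval 76.8 to 85.9) and 99.4% in the RNAi library (99.3 to 99.4). Of all reads on nrde-3, 0.702% were antisense in the wild-type library (0.629 to 0.783) and 18.1% in the RNAi library (17.8 to 18.4). The ratio of sense to antisense reads on nrde-3 was thus 141.5 in the wild-type and 4.54 in the RNAi library. Its unscaled sense count was nearly equal in the 2, at levels of 5868 and 8485 RPM. Over genes outside structural RNA with 10 or more reads, the median antisense percent was 8.33% in the wild-type library (4806 genes) and 38.5% in the RNAi library (8411 genes). unc-119 lay above the median in both libraries, with 513 and 429 genes higher, and nrde-3 below it in both, with 1077 and 2175 genes lower.

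**Figure D2:**
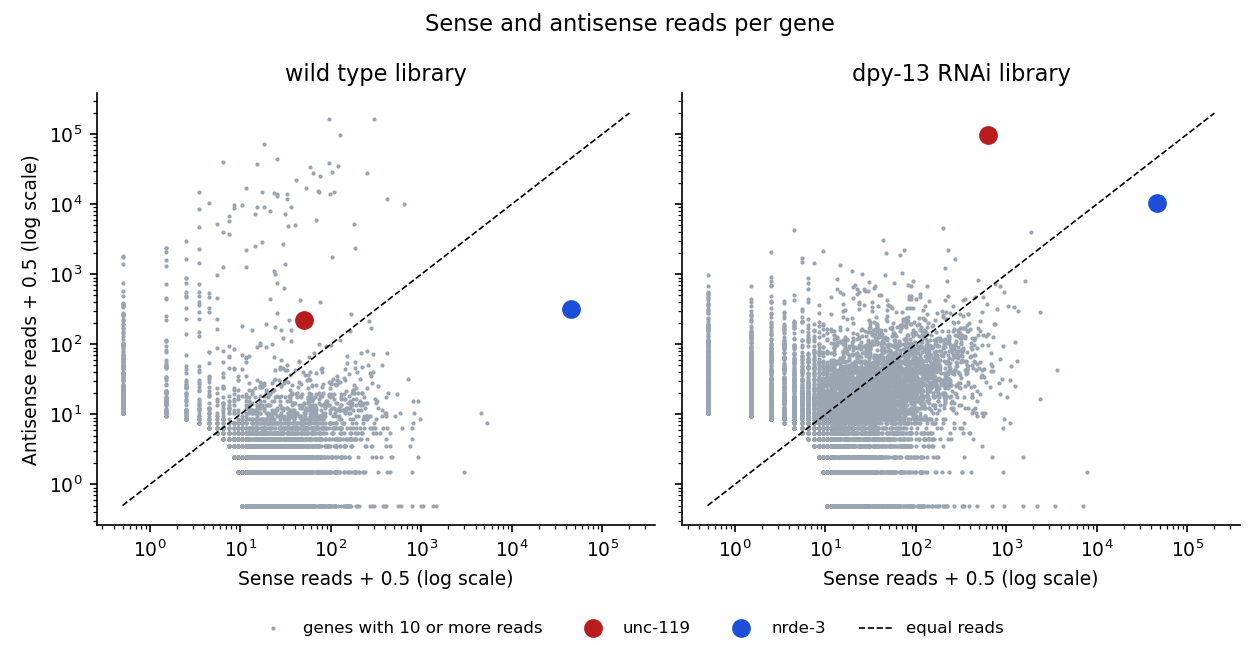
Sense reads plus 0.5 (x axis) against antisense reads plus 0.5 (y axis), on log scales, for each gene outside structural RNA with 10 or more reads in the wild-type library (left) and the RNAi library (right). unc-119 (red) lies above the line of equal reads in both, with 50 and 623 sense reads, and nrde-3 (blue) below it in both, with 45147 and 46985.

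Genes with many antisense reads usually had few sense reads. In the wild-type library 74 genes outside structural RNA had 1000 or more antisense reads, and their sense percent had a median of 0.188% and a maximum of 7.39% (eri-12). In the RNAi library 21 genes did, with a median of 2.26%. Among these 21, unc-119 had a sense percent of 0.630%, with 6 genes lower, and nrde-3 had the highest, 81.9%, followed by the cuticle collagen sqt-3 with 31.8%. nrde-3 and sqt-3, the second of them named after its values were seen, were the 2 genes of the RNAi library with 1000 or more reads on each strand. For comparison, the wrong strand of microRNA genes held 0.106% of their reads in the wild-type and 0.462% in the RNAi library (0.409 to 0.521). The sense percent of unc-119 was above these in each, at 18.2% and 0.630%. In the RNAi library it was close to the microRNA value.

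The 3 transcripts of unc-119 differ at the 5′ end. M142.1b has 3 exons and 778 nt and is contained base for base in the exons of both others. M142.1a has 4 exons and 855 nt, with a further 5′ exon of 74 nt, and M142.1c has 5 exons and 920 nt, with that exon and another of 68 nt farther upstream. The annotated exons of M142.1a also run 3 nt past the 3′ end of the others.

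In the wild-type library M142.1a had 85 antisense reads (67.9 to 105), M142.1b had 61 (46.7 to 78.4) and M142.1c had 78 (61.7 to 97.3), with overlapping intervals. In the RNAi library they had 33604 (33246 to 33965), 31584 (31237 to 31934) and 33013 (32658 to 33371), and M142.1b was lower than both others beyond counting error. The ratio between libraries was 549 (444 to 688), 719 (560 to 941) and 588 (471 to 744), with intervals that overlapped. Sense reads were 18, 17 and 15 in wild type and 219, 189 and 215 in the RNAi library, in the order a, b, c. On both strands each transcript held about an equal part of the gene's reads, from 32.2% to 34.2% of the antisense reads in the RNAi library.

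**Figure D3:**
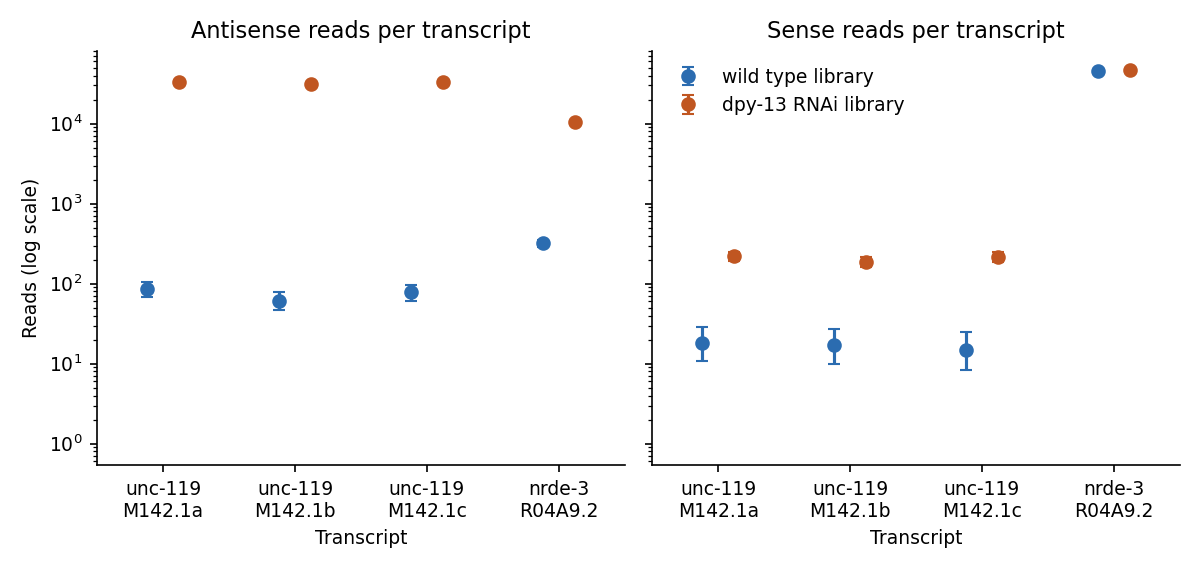
Antisense reads (left) and sense reads (right) on the 3 transcripts of unc-119 and the 1 transcript of nrde-3, on a log scale, with exact Poisson 95% intervals as bars where they exceed the points. The unc-119 transcripts lie close together within each library and strand, from 31584 to 33604 antisense reads in the RNAi library, and the sense reads of nrde-3 lie at 45147 and 46985.

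Per the series' design text reads were aligned with Bowtie2 at default parameters, under which a read that matches several transcripts equally well is placed on 1 of them. The counts do not have the form of every read counted on every transcript that holds it. Whether such reads were placed evenly was not tested. Nested pairs of transcripts of the same gene were taken where the pair had 100 or more reads of both strands. The longer had fewer reads than the transcript it contains in 33.6% of 116 pairs in the wild-type and 34.4% of 436 in the RNAi library. Counting every read on every transcript could not give this for equal annotations. If reads in the shared 778 nt are placed evenly on the 3 transcripts, 3 times the count of M142.1b estimates the reads there. This came to 94752 antisense reads in the RNAi library, or 96.5% of the gene's total (95.4 to 97.6), against 84.6% of the length of M142.1c. In the wild-type library it was 183 reads, or 81.7% (62.5 to 104.9), which is too imprecise to set against that length.

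Under that assumption the 5′ exons held a smaller part of the antisense reads in the RNAi library than of the length. Even coverage of M142.1c with an equal split would give M142.1a 32.2%, M142.1b 28.2% and M142.1c 39.6% of the reads, and the observed parts were 34.2% (33.9 to 34.5), 32.2% (31.9 to 32.5) and 33.6% (33.3 to 33.9). M142.1c, the transcript with the additional first exon, had 591 antisense reads fewer than M142.1a in the RNAi library (exact binomial interval 84.1 to 1098). In the wild-type library the observed parts were 37.9% (31.8 to 44.5), 27.2% (21.8 to 33.4) and 34.8% (28.9 to 41.3), whose intervals hold all 3 values of even coverage. The tables give no read positions, and transcript ends in WS243 may differ from the annotation used for lengths. nrde-3 is listed with the single transcript R04A9.2, of 11 exons in the annotation, so no such split was possible for it.

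Genes flanking the 2 loci had few antisense reads. Of the 5 annotated genes on each side of unc-119, 9 were listed, and they had 5 antisense reads in sum in wild type and 52 in the RNAi library. The highest was athp-1 with 1 and 26 reads, and the adjacent genes com-1, which acts in meiotic recombination, and cut-6, a cuticulin, had 0 and 8 and 0 and 4. unc-119 had 3777 times as many antisense reads in the RNAi library as athp-1. Of these 9 genes 1, athp-1, had 10 or more antisense reads, with a ratio of 36.1 (5.93 to 1481). Its 26 reads lay below the 55.4 reads that the level minimum of 10 RPM stands for in the RNAi library. The size rule could thus call 0 of the 9 genes, and the 18.6% of measured genes called higher is no scale for them.

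The 10 genes flanking nrde-3 were all listed, with 10 antisense reads in sum in the wild-type and 112 in the RNAi library. R04A9.3, 274 bp downstream on the opposite strand, had 8 and 64 antisense reads, 11.1-fold higher in RPM (5.31 to 26.8) beside a median factor of 11.9 over all genes, and of the 2 measured genes it was the 1 called higher. R04A9.9 had 1 and 42 reads and did not reach the level limit. The other 8 had at most 3 antisense reads in either library. nrde-3 had 162 times the reads of R04A9.3 in the RNAi library.

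**Figure D4:**
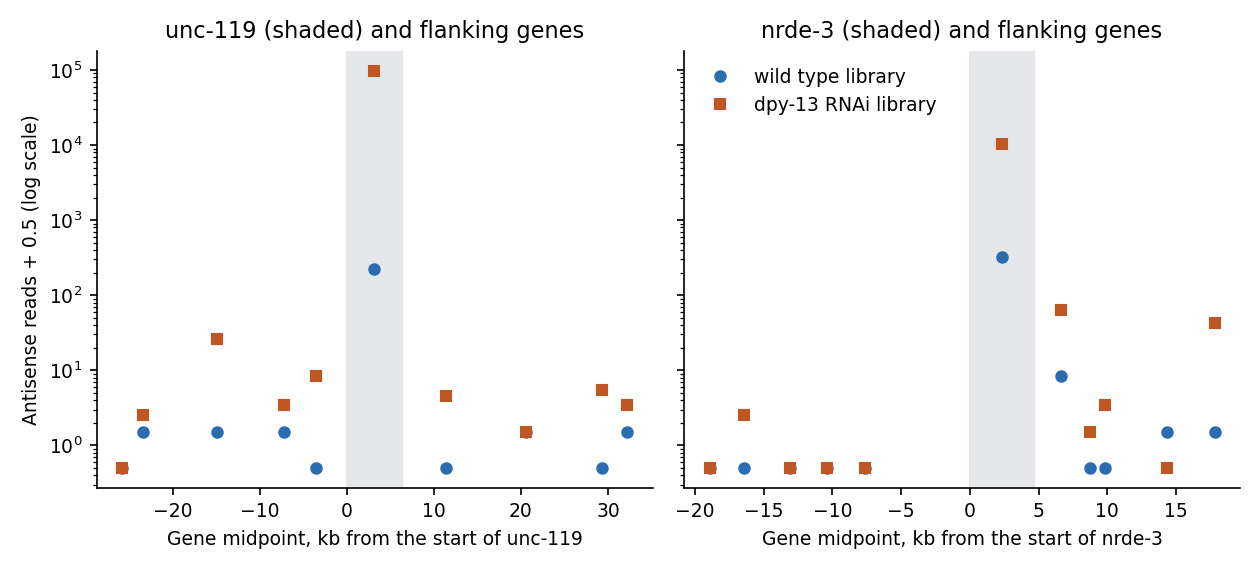
Antisense reads plus 0.5 on a log scale for unc-119 (left, shaded) and nrde-3 (right, shaded) and up to 5 annotated genes on each side, by the distance of each gene's midpoint from the start of the member in kb, in the wild-type library (blue circles) and the RNAi library (orange squares). The flanking genes reach at most 26 and 64 reads in the RNAi library, against 98201 and 10360 for the members.

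Other genes whose parts are used in transgenes were examined as a group chosen by name. Of the 18 names, 17 matched, 9 were measured, 3 were called higher (33.3%) and 0 lower by the size rule, against 18.6% and 2.63% of all measured genes. Their median log2 antisense ratio was 3.53, against 3.58 for all genes. let-858, whose 3′ end is a common part of worm vectors, had 29 and 223 antisense reads, the histone gene his-58 had 38 and 137, and lin-15B, part of a rescue marker locus, had 11 and 95. The ratio of let-858, 10.7 (7.24 to 16.3), did not differ from the all-gene median factor of 11.9 beyond counting error. That of his-58, 5.01 (3.47 to 7.38), lay below it, and reads on near-identical histone genes are uncertain for any single copy. unc-54, the source of another much used 3′ end, had 2 and 8 antisense reads beside 360 and 949 sense reads, and the marker rol-6 had 0 and 0. The highest antisense count in this group in the RNAi library was 223, compared with 98201 for unc-119.

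Among 24 neuronal genes, the class to which unc-119 belongs by function, 7 were measured, and 3 met the size rule, all higher (42.9% against 18.6% of all measured genes). The median log2 antisense ratio of the measured genes was 4.53, beside 3.58 for all genes. The minimum of 10 reads is a sum over both libraries. egl-21, with 0 and 16 antisense reads, and rab-3, with 1 and 11, met it through the RNAi library. The median does not describe the neuronal genes below that minimum. Antisense reads on unc-44, an ankyrin of axons, were 10 and 792, 110-fold higher in RPM (59.5 to 230), while unc-10, a synaptic active zone protein, had 25 and 501, and unc-76, an axon growth protein, had 7 and 109. The ratio of unc-44 was thus below that of unc-119, 534 to 698, with intervals that did not overlap. unc-33, which organises axonal microtubules, had 2 and 41 antisense reads and did not reach the level limit.

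Candidate partners of UNC-119 had few antisense reads beside unc-119 itself, at most 266 in the RNAi library. Protein-coding genes with an antisense read had a median of 2 in the wild-type and 7 in the RNAi library. Of 20 genes for G protein subunits, small GTPases and the lipid-binding chaperone gene pdl-1, 6 were measured and 2 met the size rule, both higher (33.3% against 18.6% of all measured genes), with a median log2 ratio of 3.51 beside 3.58. These were gsa-1, the stimulatory G alpha gene, with 20 and 266 reads, and gpb-1, a G beta gene, with 7 and 58. The G alpha genes egl-30 and goa-1 had 4 and 44 and 5 and 34 reads and did not meet the level limit in the RNAi library. arl-3, a GTPase that releases cargo from the mammalian homologs of UNC-119, had 0 and 4.

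Genes of nuclear RNA interference, in somatic cells or in the germline, were read in the same way. Of 10 nuclear RNA interference genes other than nrde-3, 9 were measured and 4 met the size rule, all higher (44.4% against 18.6% of all measured genes). The median log2 antisense ratio was 4.24 beside 3.58. Here too some genes, such as nrde-4 and ztf-15 (1 and 19 reads), were measured through the RNAi library. hrde-1, the Argonaute of nuclear silencing in the germline, had 7 and 196 antisense reads, nrde-2 had 10 and 146, the helicase gene emb-4 had 6 and 106, and morc-1 had 7 and 86. nrde-1 and nrde-4, needed downstream of NRDE-3, had 6 and 34 and 1 and 32 reads and did not reach the level limit. The ratio of hrde-1, 38.9 (18.5 to 98.0), had an interval that held that of nrde-3, 45.1.

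Among Argonautes other than nrde-3, 19 genes matched, 12 were measured and 5 met the size rule, all higher (41.7% against 18.6% of all measured genes), with a median log2 ratio of 3.33 beside 3.58. After hrde-1 came wago-4 with 17 and 162 antisense reads, alg-1, a microRNA Argonaute, with 15 and 130, and prg-1, the piRNA Argonaute, with 9 and 120. The sense reads of these 19 genes reached at most 173 in wild type and 346 in the RNAi library, against 45147 and 46985 for nrde-3.

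Genes of earlier steps of the pathway had medians below the all-gene log2 ratio of 3.58. Of 12 primary small RNA genes 9 were measured and 2 met the rule, both higher (22.2%, near the 18.6% of all measured genes), with a median of 3.11. These were eri-6, a helicase gene, with 67 and 623 reads, and dcr-1, which encodes Dicer, with 6 and 57. Of 14 matched amplification genes 12 were measured and 4 met it, all higher (33.3% against 18.6% of all), with a median of 3.32. rde-11 had 7 and 106 reads, rde-12 had 13 and 85, and the scaffold gene mut-16 had 4 and 70.

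The genes most like each member in read levels were listed as a description. Both members were chosen on such levels, so large distances to other genes follow in part from that choice. Distances usual for other genes were not measured. Likeness was measured as the distance over 4 values, log2(RPM + 0.5) of antisense and sense reads in the 2 libraries, among 44205 other genes outside structural RNA. Nearest to unc-119 was F23A7.4 at a distance of 4.80, with 396 and 4652 antisense and 76 and 198 sense reads. Then came sqst-1, the worm p62 gene, at 5.79, F23A7.8 at 6.37, the linker histone his-24 at 6.44 and the aminotransferase gene got-1.2 at 6.50. got-1.2 had 159 antisense reads in the wild-type and 3075 in the RNAi library. Nearest to nrde-3, at 9.87, was unc-44, with 580 and 1598 sense reads, then ZC247.1 at 9.88, anc-1, a nuclear anchorage protein, at 9.93, sqt-3 at 10.2 and frm-1 at 10.7. None of these 5 had more than 2347 sense reads in either library.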

How the data were processed

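Each transcript had a sense count and an antisense count, deposited by the authors without scaling. Alignment was to transcripts of WS243 using Bowtie2 with its defaults, per the series' design text, and no version of it was given there. Lines without a second count (2 and 3, holding 2 and 9 reads) were left out, and transcript counts were added up per gene. Names, coordinates and exonic lengths came from Ensembl 115 (WBcel235), which matched 44852 of 45510 genes.

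Count intervals are exact Poisson, shares Wilson, and ratios the exact binomial split of both counts. Adding 0.5 to both counts preceded log2 ratios, and a gene was measured from 10 antisense reads in sum upwards. A gene could thus be measured through 1 library alone, and the medians leave out genes below that sum. The size rule was tried on simulated counts with counting error only and most genes equal in both libraries. That setting lacks the general shift between these libraries, so it does not show how the rule acts on them. Python 3.11.15 with scipy 1.17.1, and edgeR 4.0.16 and DESeq2 1.42.0 for scaling factors, were used. The alternatives tried were 4 other scalings, 5 added to each count, the highest isoform, other ranks and totals, and other read minimums.

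The members and gene lists were chosen with earlier results of these data known. Named genes were the members, their 5 flanking genes on each side, the 5 nearest by likeness, and up to 4 genes per list with the most antisense reads. unc-54, rol-6, nrde-1, nrde-4 and arl-3 were added for their roles, and eri-12 and sqt-3 after their values were seen.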

Additional observations from a re-analysis of the deposited data

How the results depend on the processing

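Of 60 alternatives, 20 left a result within its interval or 1.5 times its count, 37 moved it and 3 reversed it. Scaling shifts every ratio of both strands by a constant, so the distance of each gene from the all-gene median is the same by construction. The antisense log2 ratio of unc-119 was 5.68 by TMM, 5.60 by median-of-ratios factors, 9.63 by reads outside structural RNA and 7.46 by microRNA sense reads, and that of nrde-3 was 1.92, 1.85, 5.87 and 3.71. The sense log2 ratio of unc-119 was 0.53, 0.46 and 2.31 by TMM, median of ratios and microRNA reads. That of nrde-3 was −3.04, −3.11 and −1.25 in the same order, reversed from 0.53, and 0.91 by reads outside structural RNA. The all-gene sense median was −2.04 by TMM, −2.12 by median of ratios and −0.26 by microRNA reads. With structural RNA kept, the antisense ranks in the RNAi library were 4 for unc-119 and 10 for nrde-3, and in the wild-type library 135 and 120. By reads per kb nrde-3 ranked 14 in the RNAi library, and the wild-type ranks were 158 for unc-119 and 284 for nrde-3. Among single transcripts nrde-3 ranked 4 in the RNAi library, behind those of unc-119, and the wild-type ranks were 208 and 135. Of all antisense reads unc-119 held 7.998% in the RNAi and 0.00653% in the wild-type library, and of all counted reads 1.77% and 0.00291%. The same shares of nrde-3 were 0.844% and 0.00930%, and 0.187% and 0.00415%. With unc-119 left out of the total, a setting chosen after seeing the data, the share of nrde-3 in the RNAi library was 3.16%. The size rule called 1069 genes higher and 151 lower. With 100 or more reads required it called 607 higher. TMM gave 27 higher and 244 lower, and median of ratios 25 and 251. Reads outside structural RNA gave 4828 higher; the level minimum of 10 RPM then stood for 8.82 reads in the RNAi library in place of 55.4, and the all-gene median log2 ratio was 3.96 in place of 3.58. Their separate parts in the count were not tested.

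No paired analysis was possible because each group holds 1 library. In wild type the 224 antisense reads of unc-119 limit the split among its transcripts, and the lack of replicates means that spread between preparations is unknown.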
